A study of Homo sapiens with 16 samples.

Results

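Doxycycline is the drug that switches on tetracycline-regulated transgenes, and the 6 libraries described here show what it did in U2OS-TR cells that carried no such transgene. U2OS-TR is a human osteosarcoma line that makes the bacterial tetracycline repressor. The parental cells were sampled as 3 libraries without the drug and 3 libraries labelled as treated, out of 16 libraries in the series. They were chosen by their labels, and every entry for a human gene in their count tables was used. The other 10 libraries are 5 uninduced and 5 induced ones of a single G418-selected clone of U2OS-TR in which the drug induces ΔN-RNMT, a form of the cap methyltransferase RNMT under a tetracycline-operated CMV promoter. All cells grew for 48 h before doxycycline was added at 1 µg/ml for 24 h. The protocol text repeats that dose for every library, whereas the sample names give the drug only to the treated ones, and the names were followed. The values are counts of sequence tags from the 3′ ends of polyadenylated cytoplasmic RNA, obtained after the nuclei had been spun out of a detergent lysate. The parental cultures are described as grown in triplicate.

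Doxycycline binds the small subunit of bacterial ribosomes and, because mitochondrial ribosomes descend from them, it also slows protein synthesis in mitochondria of animal cells. Those ribosomes make some of the subunits of respiratory complexes I, III and IV and of ATP synthase, from mRNAs encoded in mitochondrial DNA. All the other subunits are made in the cytoplasm from nuclear genes. Cells with disturbed mitochondrial translation are known to raise targets of the transcription factor ATF4 and to shift toward glycolysis. Long noncoding RNAs such as MALAT1 and NEAT1 stay in the nucleus, in speckles and paraspeckles, and are scarce in a clean cytoplasmic extract.

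Of 9124 genes with enough counts to test, 0 differed between treated and untreated parental cells (edgeR's quasi-likelihood test, adjusted p below 0.05), a background of 0% called. An unadjusted p below 0.05 was reached by 267 genes (2.93% of those tested), of which 85 (0.932%) were higher and 182 (1.99%) were lower with doxycycline. DESeq2's Wald test called 1 gene (0.011%), MALAT1. Treated and untreated libraries did not overlap for 869 genes (9.52%), 444 of them higher (4.87%) and 425 lower (4.66%). The middle 90% of the log2 fold changes ran from -0.97 to 0.75 around a median of -0.01, with a median standard error of 0.48. In libraries simulated at this depth, with the dispersion of each gene, the edgeR test found 0% of simulated 2-fold changes, 38% of 4-fold and 86.5% of 8-fold ones. Most changes of less than 4-fold were therefore not detectable here. False calls of edgeR in these 3 simulations numbered 0, 5 and 7. DESeq2 found 0%, 63% and 91.5%, with 10, 33 and 35 false calls. Each gene was simulated on its own with edgeR's dispersions, without deviations shared across genes, so the simulations do not rank the tools on these libraries. In RNA from pooled cells, a change in every cell and a larger one in some of them cannot be told apart. The values below are therefore descriptions of the 6 libraries unless a test is given.

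The libraries were shallow and uneven. Gene counts were 1578749, 1639782 and 3214808 in untreated libraries 1 to 3 and 2979789, 2445875 and 1473286 in treated libraries 1 to 3, against 12527183 to 23251834 in the transgene line. For each count inside a gene there were 1.11 to 1.5 counts outside genes in the parental libraries and 0.0744 to 0.106 in the transgene line. Replicates disagreed beyond sampling noise (chi-square per degree of freedom 17.2 to 44.2), and correlations of log2 counts between libraries ran from 0.68 for untreated library 1 and treated library 2 to 0.95 for untreated library 3 and treated library 1. Treated libraries 2 and 3 deviated in opposite directions with GC content (Spearman's rho across genes -0.46 and 0.41). In 427 of 2039 pairs of genes with overlapping exons on opposite strands, the lesser gene held at least 80% of the counts of the greater one in the parental libraries. Over those pairs the median was 93.3% in the parental line and 2.95% in the transgene line. Counts of such genes cannot be assigned to 1 strand, and each one named below is marked. Genes in pairs below that 80% limit are not marked, and whether they hold counts of an opposite-strand neighbour was not tested. Mesenchymal genes such as VIM (121 to 440 CPM) and COL1A1 (114 to 493 CPM) were expressed in each library. The bone and mesenchymal markers took 0.0633% to 0.172% of gene counts, with 7 of 14 tested and 0 called (median log2 fold change -0.02), and the epithelial, blood and endothelial markers took 0.00433% to 0.00747%, with 1 of 15 (CLDN4) tested and 0 called.

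MALAT1, a long noncoding RNA of nuclear speckles that is encoded on chromosome 11 (GRCh38 chr11:65497640-65508073, plus strand), had the lowest p of all genes. Its level was 1278, 303 and 597 CPM (counts per 1e6 gene counts, after scaling) in untreated libraries 1 to 3, and 126, 123 and 118 CPM in treated libraries 1 to 3. The untreated libraries differed among themselves by more than the treated ones, yet each lay above every treated library. The means were 726 ± 500 and 122 ± 4.28 CPM (SD, n = 3 each), a 5.94-fold lower level with doxycycline (95% confidence interval 2.61 to 13.5). The log2 fold change was -2.57 with a standard error of 0.54, and its adjusted p was 0.997 in edgeR with all tested genes and 0.017 in DESeq2. DESeq2 made more false calls than edgeR in the simulated libraries, which were drawn with edgeR's dispersions and do not rank the tools here. In edgeR without a filter on low counts the adjusted p was 0.0215. Without untreated library 1, which held the most MALAT1, the log2 fold change was -1.80.

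**Figure D1:**
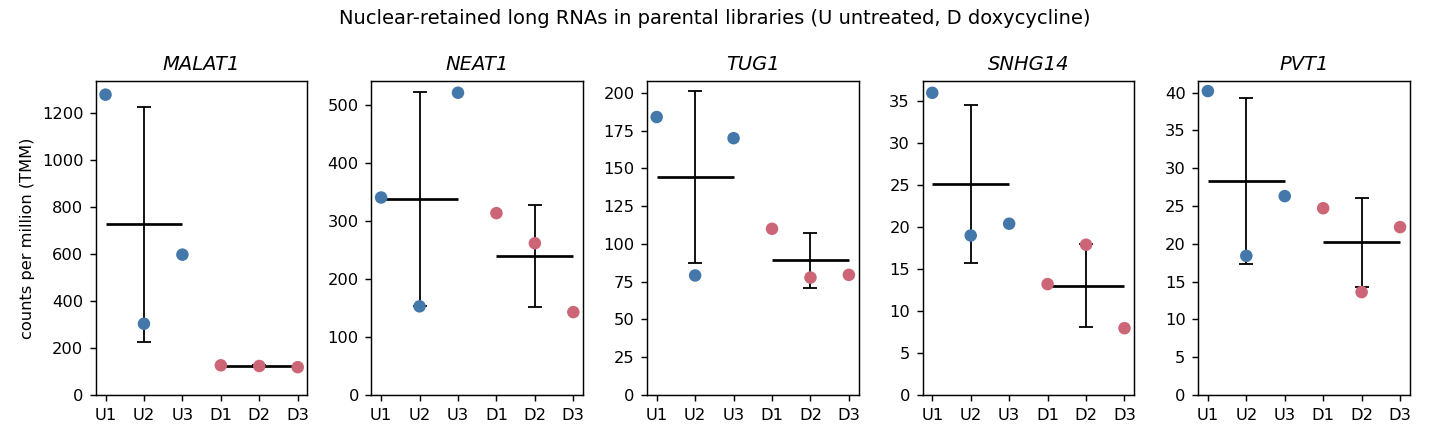
Level of 5 nuclear-retained long RNAs in each parental library, in CPM scaled by the trimmed mean of M values (TMM), for untreated (U1 to U3, blue) and doxycycline-treated (D1 to D3, red) cells; lines are group means and bars are the SD (n = 3). MALAT1 was 118 to 126 in the treated libraries and 303 to 1278 in the untreated ones, while NEAT1, TUG1 and PVT1 overlapped between the groups.

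The other nuclear-retained RNAs were lower on average, but by less. Of 9 listed, 8 were detected and 5 had enough counts to test, and of these 0 were called, 1 (MALAT1) had an unadjusted p below 0.05 and 2 did not overlap between the groups, both lower. Among all tested genes, 1.99% were lower with such a p and 4.66% were lower without overlap. The median log2 fold change of the 5 was -0.70, against -0.01 for all tested genes. SNHG14, the host transcript of the imprinted snoRNA clusters on chromosome 15, was at 36, 19 and 20.4 CPM without the drug and 13.2, 17.9 and 7.95 CPM with it, and so did not overlap (log2 fold change -0.92, SE 0.50).

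NEAT1, the scaffold RNA of paraspeckles encoded next to MALAT1, measured 341, 153 and 522 CPM in untreated cells and 314, 262 and 143 CPM in treated cells. Untreated library 2 lay among the treated values, and the fold change of NEAT1 turned from -0.50 to 0.01 when untreated library 3 was left out. TUG1 was at 184, 79.1 and 170 CPM against 110, 77.7 and 79.5 CPM (log2 fold change -0.70, SE 0.42). PVT1 was at 40.2, 18.4 and 26.3 CPM against 24.7, 13.6 and 22.2 CPM (log2 fold change -0.49, SE 0.47). For both, untreated library 2 again overlapped the treated libraries.

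Taken as a share of all gene counts, nuclear-retained RNAs made up 0.2%, 0.0595% and 0.144% of untreated libraries 1 to 3 and 0.0571%, 0.0525% and 0.0322% of treated libraries 1 to 3. Each untreated value lay above each treated one, though untreated library 2 exceeded treated library 1 by little. The means were 0.134% ± 0.0707 and 0.0472% ± 0.0133 (SD, n = 3), a difference that gave p = 0.1 in a two-sided exact permutation test, the smallest p that 3 against 3 libraries can give. Adjusted over the 10 shares tested it was 0.5 in the same exact test. MALAT1 alone held 0.135%, 0.0311% and 0.0636% of untreated counts and 0.0121%, 0.0129% and 0.01% of treated counts. Without MALAT1 the remaining nuclear-retained share was 0.065%, 0.0284% and 0.0799% against 0.0449%, 0.0395% and 0.0221%, with overlapping groups (exact permutation p = 0.3).

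In the transgene line the nuclear-retained share was 0.0898% ± 0.00653 in uninduced and 0.0972% ± 0.0161 in induced cells (SD, n = 5), so the untreated parental libraries spread both above and below that range. The mRNAs with detained introns, which are spliced slowly and held in the nucleus, had 8 of 10 members tested, 2 above 0, 0 called and a median log2 fold change of -0.17, which ran from -0.41 to 0.35 with 1 library left out. OGT, the O-GlcNAc transferase, was at 44.4, 20.2 and 35.9 CPM without and 20.5, 16.3 and 9.53 CPM with doxycycline (unadjusted p = 0.0458 in edgeR), while the splicing kinase gene CLK2 was at 9.59, 5.35 and 22.5 CPM against 26.8, 21.8 and 21.5 CPM. Small structured RNAs such as U snRNAs had 1 of 8 members detected and 0 tested. The long noncoding RNA genes as a whole took 5.17% to 5.43% of untreated and 4.93% to 5.49% of treated counts. In the transgene line their mean shares were 1.54% uninduced and 1.52% induced. The parental total includes counts shared with abundant opposite-strand mRNAs. TUBA1B-AS1 held 49591 parental counts beside 50031 of TUBA1B, and 313 beside 905017 in the transgene line. The steady parental total is therefore no result about long noncoding RNAs. How much nuclear RNA entered each extract was not measured separately, and its part in the MALAT1 values was not tested.

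**Figure D2:**
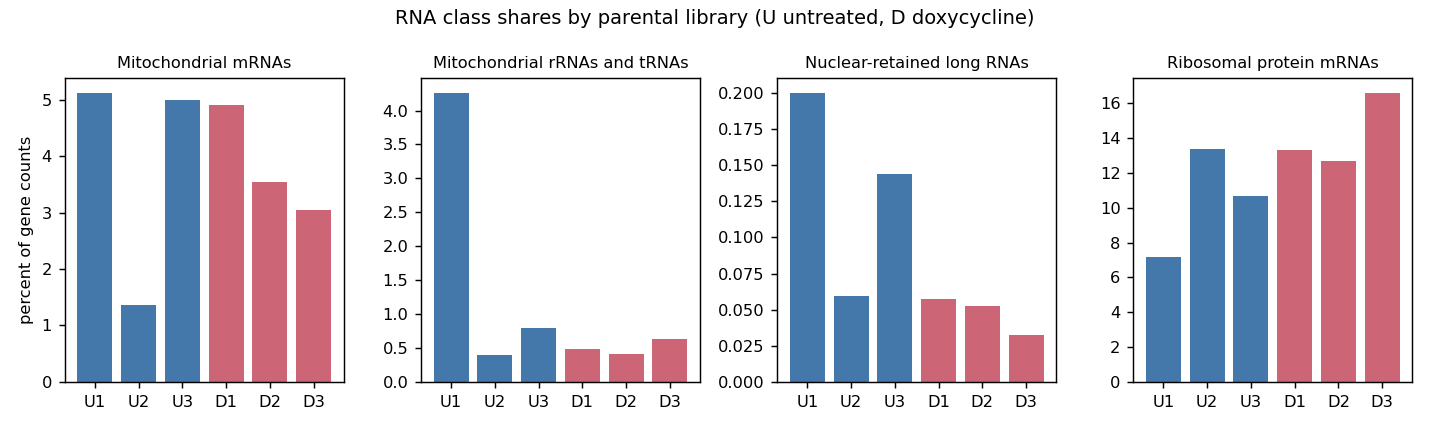
Share of all gene counts (percent) taken by 4 RNA classes in each parental library (U untreated, D doxycycline; each bar is 1 library). Untreated library 1 held 4.26% of its counts in mitochondrial rRNAs and tRNAs, against 0.4% to 0.794% in the 5 other libraries.

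The mRNAs made in mitochondria showed no difference with the drug. All 13 were tested, 7 had a fold change above 0, and 0 were called, had an unadjusted p below 0.05 or separated the groups (median log2 fold change 0.17). Together they took 5.12%, 1.36% and 4.99% of gene counts in untreated libraries 1 to 3 and 4.91%, 3.55% and 3.05% in treated libraries 1 to 3. Untreated library 2 stood apart with the lowest share, and the means of 3.82% ± 2.13 and 3.84% ± 0.962 were close (exact permutation p = 1). With 3 libraries a group and this spread, the data leave room for sizeable differences in either direction.

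The members were not alike. MT-ATP6, an ATP synthase subunit, was at 9331, 3049 and 14101 CPM without and 19029, 12251 and 10396 CPM with doxycycline (log2 fold change 0.65, SE 0.62). MT-ND4, a complex I subunit, was at 10116, 2054 and 8337 CPM against 5545, 3200 and 4014 CPM (log2 fold change -0.68, SE 0.61). MT-CO3, a complex IV subunit, was at 17521, 2539 and 10126 CPM against 13221, 8333 and 6427 CPM (log2 fold change -0.11, SE 0.68).

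The short mRNA of MT-ND3 was at 2104, 2881 and 3031 CPM without the drug and 2508, 1636 and 8281 CPM with it, so treated library 3 stood apart. MT-CYB of complex III had a log2 fold change of 0.31 (SE 0.61), MT-CO1 0.35 (SE 0.49), MT-CO2 0.48 (SE 0.46), MT-ND1 0.17 (SE 0.55) and MT-ND4L 0.69 (SE 0.61). The lowest fold changes among the rest were those of MT-ATP8 (-0.93, SE 0.91), MT-ND6 (-0.31, SE 0.56) and MT-ND5 (-0.21, SE 0.55), and MT-ND2 was at 0.00 (SE 0.66). Every interval included 0.

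Mitochondrial rRNAs and tRNAs followed 1 library. Their share was 4.26%, 0.4% and 0.794% without and 0.483%, 0.407% and 0.631% with doxycycline. MT-RNR2, the large-subunit rRNA, was at 37305, 3070 and 6509 CPM in untreated libraries 1 to 3 and 4144, 3179 and 5018 CPM in treated libraries 1 to 3. The groups overlapped, and its log2 fold change of -1.93 (SE 0.83, unadjusted p = 0.0406 in edgeR) came to -0.14 without untreated library 1. MT-RNR1, the small-subunit rRNA, was at 2134, 657 and 550 CPM against 545, 461 and 1940 CPM (log2 fold change -0.18, SE 0.68). Of 24 rRNAs and tRNAs 21 were detected and 7 tested, with 0 called, 1 unadjusted p below 0.05 (MT-RNR2) and a median log2 fold change of -0.59 that became 0.56 without untreated library 1. All 37 mitochondrial genes together held 9.38%, 1.76% and 5.78% of untreated counts and 5.39%, 3.96% and 3.68% of treated counts (exact permutation p = 0.7), and the mean difference turned from -1.3 to 0.573 percentage points without that library. In the transgene line the mitochondrial share was 1.23% ± 0.221 uninduced and 1.07% ± 0.204 induced (SD, n = 5).

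Nuclear genes of the respiratory chain read higher with doxycycline in most members, without any call. Among all tested genes, 0.932% had an unadjusted p below 0.05 and were higher, and 1.99% were lower. Non-overlapping groups were seen for 4.87% that were higher and 4.66% that were lower. These shares are the background for the counts of every list below. Among ATP synthase subunits 15 of 18 tested had a fold change above 0 (49.2% of all tested genes did), with a median log2 fold change of 0.64, 2 unadjusted p below 0.05, both higher, and 4 members whose groups did not overlap, all higher. Complex I had 27 of 38 above 0 and a median of 0.35, with 2 unadjusted p below 0.05 and 6 non-overlapping members, all higher. Complexes II to IV had 17 of 23 above 0 and a median of 0.45, with 2 unadjusted p below 0.05, both higher, and 3 non-overlapping members higher and 1 lower. All 3 medians stayed above 0 with each library left out in turn, at 0.47 or more, 0.17 or more and 0.14 or more. Single libraries were less uniform, taking each list's median log2 deviation from the gene means. For complex I it was 0.35 in untreated library 2, above 0.10 and -0.09 in treated libraries 1 and 2. For complexes II to IV it was 0.52 there, above 0.21 and 0.05. For ATP synthase, each treated library (0.36 to 0.47) lay above each untreated one (-0.70 to 0.27).

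Among the members, ATP5PF, a subunit of the peripheral stalk of ATP synthase, was at 85.1, 163 and 127 CPM without and 271, 295 and 193 CPM with the drug (log2 fold change 1.02, SE 0.40). COX7C, a complex IV subunit, was at 189, 306 and 291 CPM against 640, 516 and 499 CPM (log2 fold change 1.08, SE 0.39). NDUFC2, an accessory subunit of complex I, was at 112, 193 and 175 CPM against 318, 339 and 299 CPM (log2 fold change 0.99, SE 0.38). In each of the 3 genes the lowest treated library lay above the highest untreated one.

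NDUFAB1, the mitochondrial acyl carrier protein, was at 90.5, 232 and 149 CPM without and 384, 332 and 297 CPM with doxycycline. UQCRB of complex III was at 104, 632 and 282 CPM against 745, 782 and 977 CPM, and ATP5PO, a stator subunit of ATP synthase, at 184, 693 and 614 CPM against 1052, 1192 and 801 CPM. Untreated library 1 was the lowest of the 6 in all 6 of these nuclear-encoded genes.

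Proteins of the mitochondrial ribosome had 54 of 75 tested members above 0, a median log2 fold change of 0.21, 2 with an unadjusted p below 0.05 and 11 non-overlapping members higher and 1 lower. Of all tested genes, 4.87% were non-overlapping and higher and 4.66% lower. MRPS17 of the small subunit was at 39.6, 48.7 and 45 CPM without and 91.6, 68.8 and 76.3 CPM with the drug, and MRPL44 of the large subunit was at 6.6, 27.3 and 22.2 CPM against 46, 45.9 and 34.2 CPM. The machinery of mitochondrial transcription and translation showed no lean (8 of 18 above 0, median -0.02, 0 called). Its RNA polymerase POLRMT was at 42, 12.5 and 13.7 CPM against 8.71, 7 and 15.9 CPM. Mitochondrial chaperones and proteases, which respond to misfolded mitochondrial proteins, had 12 of 15 above 0 with a median of 0.21 and 0 called. HSPD1, the matrix chaperonin, was at 552, 526 and 1086 CPM without and 1516, 1385 and 474 CPM with doxycycline, so treated library 3 went the other way, and its partner HSPE1 did the same (416, 433 and 715 against 832, 870 and 340 CPM).

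Targets of ATF4, the transcription factor of the integrated stress response, had 20 of 27 tested members above 0, a median log2 fold change of 0.22, 0 called, 1 unadjusted p below 0.05 (higher) and 2 non-overlapping members, both higher. Of all tested genes, 0.932% were higher with such a p and 4.87% were higher without overlap. DDIT4, an mTORC1 inhibitor, was at 6.6, 10.7 and 14 CPM without and 24.7, 28 and 15.1 CPM with the drug (log2 fold change 1.10, SE 0.49). Asparagine synthetase, ASNS, was at 58.8, 87.4 and 131 CPM against 145, 96 and 225 CPM, and MTHFD2, a mitochondrial folate enzyme, at 167, 450 and 248 CPM against 427, 662 and 251 CPM. Both overlapped between the groups.

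Glycolysis and lactate export had 16 of 21 above 0 and a median of 0.20, which became -0.15 without treated library 3. LDHB, lactate dehydrogenase B, separated the groups (339, 337 and 351 against 653, 491 and 460 CPM), whereas the lactate exporter SLC16A1 was at 305, 102 and 158 CPM without and 109, 115 and 109 CPM with doxycycline. Hypoxia targets (9 of 14 above 0, median 0.18), iron handling genes (5 of 8, median 0.23), metallothioneins and zinc transporters (2 of 5, median -0.10) and matrix metalloproteinases with their inhibitors (5 of 6, median 0.16) had 0 called. The last 3 were listed because tetracyclines bind metal ions and doxycycline inhibits matrix metalloproteinases as enzymes. MMP3, stromelysin, was at 12, 10.1 and 10.2 CPM without and 39.4, 25.3 and 17.5 CPM with the drug (log2 fold change 1.35, SE 0.48). MT2A, a metallothionein, was at 92.3, 672 and 314 CPM against 828, 762 and 1015 CPM.

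mRNAs of cytoplasmic ribosomal proteins were 57 of 78 above 0, with a median log2 fold change of 0.35, 0 called, 1 unadjusted p below 0.05 and 9 non-overlapping members higher and 1 lower (4.87% and 4.66% of all tested genes). They took 7.15%, 13.4% and 10.7% of untreated gene counts and 13.3%, 12.7% and 16.6% of treated gene counts (exact permutation p = 0.3), so untreated library 1 was low, treated library 3 was high and the 4 others were within 10.7% to 13.4%. RPS27A, a small-subunit protein made as a fusion with ubiquitin, was at 1362, 8794 and 5077 CPM without and 12141, 11731 and 20413 CPM with doxycycline. RPL26 was at 368, 1098 and 1392 CPM against 2305, 2375 and 1473 CPM. The median of the ribosomal protein mRNAs was 0.12 without treated library 3 and 0.67 without untreated library 2.

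Translation initiation and elongation factors had 22 of 51 above 0, a median of -0.12, 0 called, 2 unadjusted p below 0.05, both lower (1.99% of all tested genes), and 4 non-overlapping members higher and 2 lower (4.87% and 4.66% of all tested genes). EIF4G1, the scaffold of the cap-binding complex, was at 284, 231 and 54.9 CPM without and 30.3, 21.8 and 58.8 CPM with the drug (log2 fold change -2.37, SE 0.62), with untreated library 3 among the treated values. PABPC1, the cytoplasmic poly(A)-binding protein, was at 1848, 916 and 569 CPM against 180, 321 and 611 CPM, also overlapping. Capping and cap methylation enzymes had 1 of 6 tested above 0, a median of -0.50 and 0 called. RNMT itself, the gene whose truncated form the other line expresses, was at 86.9, 121 and 71.5 CPM against 65.8, 88.2 and 54.8 CPM (log2 fold change -0.42, SE 0.39), and AHCY, which clears the by-product of methylation, at 150, 159 and 126 CPM against 83.2, 117 and 60.4 CPM.

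**Figure D3:**
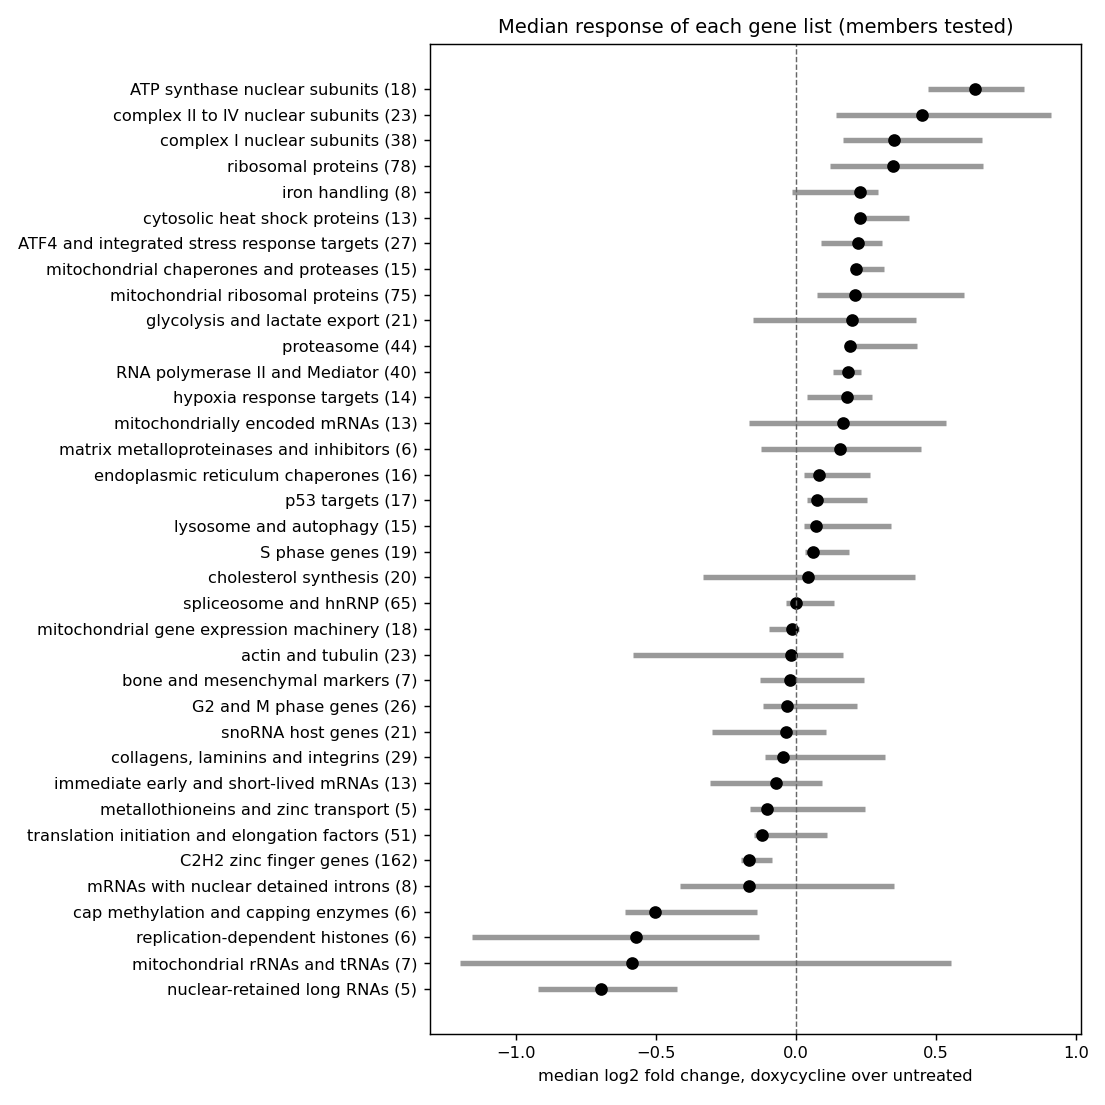
Median log2 fold change, doxycycline over untreated, of the members of each gene list with at least 5 members tested (number tested in brackets; dots), with the lowest and highest median when each of the 6 libraries was left out (grey bars). The medians ran from -0.70 for nuclear-retained RNAs to 0.64 for ATP synthase subunits, and 19 of 36 lists kept their sign throughout.

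The other lists had 0 members called. S phase genes had 10 of 19 above 0 (median 0.06), G2 and M phase genes 13 of 26 (median -0.03), p53 targets 9 of 17 (median 0.07) and cholesterol synthesis genes 10 of 20 (median 0.04). Lysosome and autophagy genes had 8 of 15 above 0 (median 0.07). Spliceosome and hnRNP genes had 32 of 65 above 0 (median 0.00), actin and tubulin genes 10 of 23 (median -0.02), snoRNA host genes 10 of 21 (median -0.04) and collagens, laminins and integrins 14 of 29 (median -0.05). Immediate early mRNAs, which turn over quickly, had 5 of 13 above 0 (median -0.07). NF-kB genes had 3 members tested, with a median of 0.13.

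Lists outside mitochondria also read higher in most members, with medians like those of the mitochondrial ribosome and the ATF4 targets. Proteasome genes had 34 of 44 above 0, a median of 0.19 (0.19 to 0.43 with 1 library left out) and 4 non-overlapping members, all higher. Cytosolic heat shock proteins had 9 of 13 above 0, with a median of 0.23. RNA polymerase II and Mediator genes had 26 of 40 above 0 and a median of 0.19, with 3 non-overlapping members higher and 3 lower. Beside the counts of these lists, 4.87% of all tested genes were non-overlapping and higher and 4.66% lower. Interferon response genes had 4 members tested, 3 above 0, and the highest median of these lists at 0.66 (0.49 to 0.85 with 1 library left out).

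Besides the lists already described, C2H2 zinc finger genes and replication-dependent histones read lower in most members. The zinc finger genes had 55 of 162 above 0 and a median of -0.17. Of them 2 had an unadjusted p below 0.05, both lower, and 7 were non-overlapping and lower and 3 higher, shares that lay below the 1.99%, 4.66% and 4.87% of all genes. The histones had 1 of 6 tested above 0 and a median of -0.57. ZNF609 was at 111, 57.1 and 67.2 CPM without and 23.3, 45.1 and 21.5 CPM with doxycycline. The histone values were uneven within groups. H4C3, a histone H4 gene, was at 348, 80.8 and 11.1 CPM without and 6.27, 3.89 and 163 CPM with the drug.

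These lists also differed in transcript length, a property that moved with the fold change across genes. Median canonical transcript length was 708 nt for ATP synthase subunits, 693.5 nt for complex I, 827 nt for ribosomal proteins and 4559.5 nt for zinc finger genes. Across the 9088 genes with a length, ordered in 5 equal classes from the shortest to the longest transcripts, the median log2 fold change was 0.17, 0.04, -0.02, -0.07 and -0.17. In the shortest class 132 of 1818 genes were non-overlapping and higher and 32 lower, and in the longest 52 were higher and 158 lower. Spearman's rho between log2 fold change and length was -0.21 across genes, which share the 6 libraries, and it was -0.03 without treated library 3. With offsets for transcript length, chosen after seeing the data, the medians were 0.54 for ATP synthase subunits, 0.28 for complex I, 0.30 for ribosomal proteins and -0.08 for zinc finger genes, and MALAT1 was at -2.25.

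Among the 8 genes with the lowest p that were higher in every treated library, NPTXR, the neuronal pentraxin receptor, was at 10.8, 24.4 and 24.8 CPM without and 58.9, 49 and 97.7 CPM with doxycycline (log2 fold change 1.76, SE 0.47). SNRPN, an Sm-core spliceosome protein from the imprinted locus on chromosome 15, was at 43.2, 84.4 and 84.7 CPM against 197, 184 and 175 CPM (log2 fold change 1.39, SE 0.40). SNRPN was higher while SNHG14, which runs downstream on the same strand, was lower. SNHG14 starts at position 24978583, before the annotated end of SNRPN at 24978723, and the assignment of counts between them was not tested. HSPA5, the major chaperone of the endoplasmic reticulum, was at 296, 490 and 438 CPM against 1053, 776 and 1003 CPM (log2 fold change 1.21, SE 0.41).

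SNU13, which binds the U4 snRNA and box C/D snoRNAs, was at 227, 251 and 365 CPM without and 852, 729 and 511 CPM with the drug. PLK1, the mitotic kinase, was at 33, 69.5 and 65.4 CPM against 124, 109 and 154 CPM. The ephrin receptor gene EPHA1 (14.4, 7.13 and 22.2 against 75.2, 56.7 and 23.8 CPM), TSTD1 (64.2, 72.5 and 93.1 against 169, 133 and 202 CPM) and the adhesion receptor gene ADGRE5 (24.6, 22 and 22.2 against 59.2, 46.2 and 67.5 CPM) completed the 8. ADGRE5 shares its counts with an opposite-strand gene. EPHA1 and TSTD1 were barely counted in the uninduced transgene line, at means of 0.434 and 0.414 CPM, and the reason was not tested. The unadjusted p values of the 8 genes lay between 0.0034 and 0.0145 in edgeR, and all 8 had an adjusted p of 0.997.

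**Figure D4:**
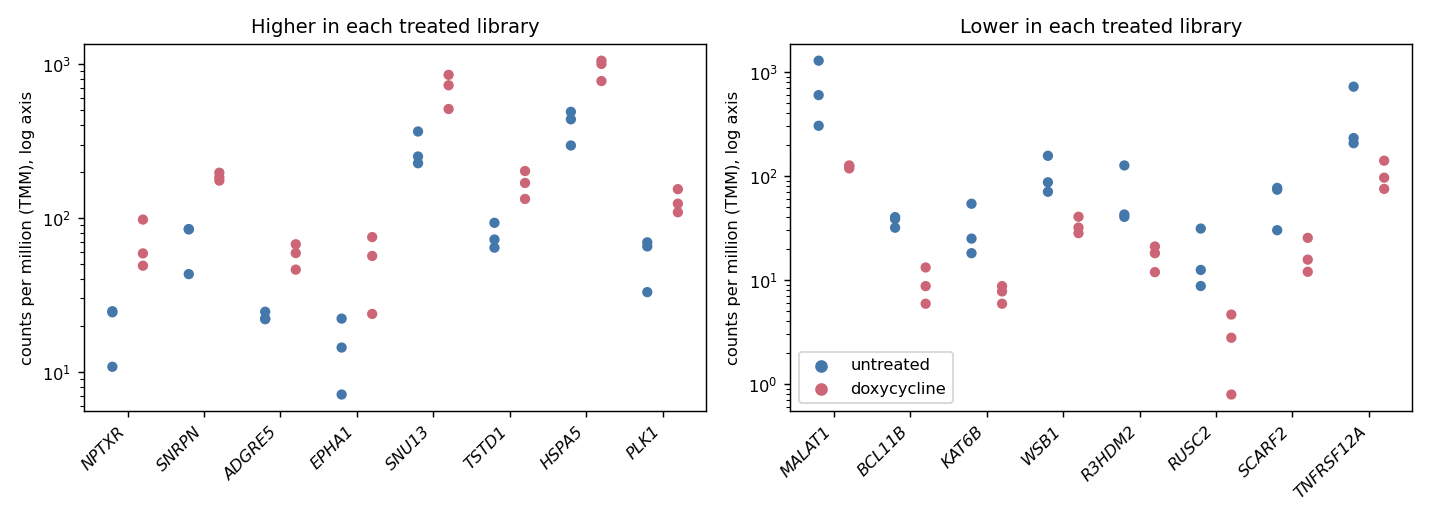
Level in CPM (TMM, log axis) of the 8 genes with the lowest unadjusted p that were higher in every treated library (left) and the 8 that were lower (right); each point is 1 library, blue untreated and red doxycycline. The genes were chosen for not overlapping between the groups, and RUSC2 at 0.795 to 31.2 was the least abundant.

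The endoplasmic reticulum chaperone list, to which HSPA5 belongs, was mixed, with 10 of 16 above 0, a median of 0.08 and 0 called. An unadjusted p below 0.05 was reached by 1 member higher and 2 lower (0.932% and 1.99% of all tested genes). Of its members 3 were non-overlapping and higher and 2 lower (4.87% and 4.66% of all tested genes). PDIA3, a disulfide isomerase, was at 488, 152 and 182 CPM without and 101, 65.3 and 104 CPM with doxycycline. MANF, which is secreted on endoplasmic reticulum stress, was at 303, 259 and 192 CPM against 118, 170 and 62.8 CPM, and CRELD2, another stress-induced chaperone, at 33.6, 80.2 and 74.5 CPM against 97.9, 103 and 145 CPM. PDIA3 and MANF were thus lower in every treated library and HSPA5 and CRELD2 higher.

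After MALAT1, the lowest p among genes lower in every treated library belonged to BCL11B, a zinc finger transcription factor, at 40.2, 38.6 and 31.8 CPM without and 5.92, 13.2 and 8.74 CPM with the drug (log2 fold change -1.98, SE 0.47). KAT6B, a histone acetyltransferase, was at 54, 25 and 18.1 CPM against 5.92, 7.77 and 8.74 CPM (log2 fold change -2.11, SE 0.55). TNFRSF12A, the receptor for TWEAK, was at 719, 231 and 206 CPM against 140, 75 and 96.1 CPM (log2 fold change -1.89, SE 0.55).

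WSB1, a ubiquitin ligase adaptor, was at 156, 86.8 and 70.4 CPM without and 28.2, 31.9 and 40.5 CPM with doxycycline. R3HDM2 was at 126, 40.4 and 42.6 CPM against 18.1, 21 and 11.9 CPM, and the scavenger receptor gene SCARF2 at 73.7, 76.7 and 30.1 CPM against 15.7, 12 and 25.4 CPM. RUSC2, whose counts are shared with an opposite-strand gene, was at 31.2, 12.5 and 8.76 CPM against 2.79, 4.66 and 0.795 CPM. Its treated values rested on 8, 12 and 1 counts, those of BCL11B on 17, 34 and 11 and those of KAT6B on 17, 20 and 11. In all of these genes but SCARF2 untreated library 1 was the highest of the 6, as it was for MALAT1. All 7 of these genes had an adjusted p of 0.997 in edgeR, with unadjusted p from 0.0015 to 0.0053.

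Whether the cells with the inducible transgene answered doxycycline in the same way was tested as the difference between the 2 responses, over all 16 libraries. Of 12265 genes tested, 365 (2.98%) differed between the lines at an adjusted p below 0.05 in edgeR, 270 of them (2.2%) with a higher response in the parental line and 95 (0.775%) with a lower one, and 363 had opposite signs in the 2 lines. A call for a large difference favours opposite signs, and their share over all genes is not given here. The 363 therefore do not show that the lines responded in opposite directions. MALAT1 was among the 95, with a log2 fold change of -2.48 in the parental line and -0.11 in the transgene line, where it was at 595 ± 68.4 CPM uninduced and 551 ± 162 CPM induced (SD, n = 5). Their difference was -2.37 (SE 0.52, adjusted p = 0.0405 in edgeR), and with the replicate block within lines its adjusted p was 0.0558, which is no call. NEAT1 did not differ between the lines (difference 0.17, SE 0.46).

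HSPA5 was the opposite in direction, higher in the parental line with the drug and at 588 ± 114 CPM induced against 1159 ± 272 CPM uninduced in the transgene line (difference 2.28, SE 0.38). RNMT was at 81.5 ± 19 CPM uninduced and 351 ± 83.3 CPM induced in the transgene line, where its counts cannot be divided between the gene and the construct, and the difference between the lines was -2.43 (SE 0.39). The calls were not stable to the choice of libraries, since 8 of 16 fits that each left out 1 library gave 0 calls, among them those without untreated library 1 or treated library 1 of the parental line, and the fit without treated library 2 gave 1647. The line, the transgene, the sequencing facility, the instrument and the read length go together in this series and cannot be told apart. Depth, counts outside genes and the sharing of counts across strands, given above, also split by line.

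**Figure D5:**
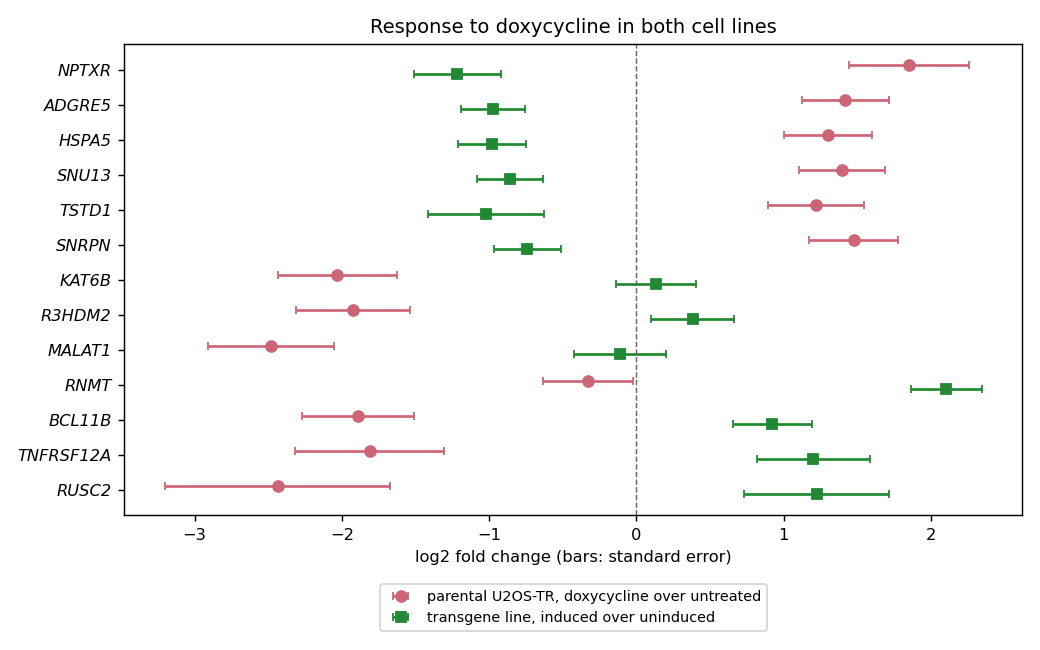
Log2 fold change with doxycycline in parental cells (red circles) and on induction in the transgene line (green squares), from 1 fit over 16 libraries, with standard errors, for the 13 genes that differed between the lines among the nuclear-retained RNAs, RNMT and the 16 genes of lowest p. The 6 genes at the top were higher with the drug in parental cells and lower in the transgene line, and MALAT1, at -2.48 and -0.11, was far below 0 in the parental line alone.

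By list, the medians in that fit were 0.70 in the parental and -0.11 in the transgene line for ATP synthase subunits, 0.43 and -0.44 for ribosomal proteins, 0.26 and -0.85 for mitochondrially encoded mRNAs and 0.31 and -0.34 for ATF4 targets. The lines differed for 2 of 19 ATP synthase subunits, 7 of 83 ribosomal proteins, 0 of 13 mitochondrial mRNAs and 1 of 29 ATF4 targets, each with the higher response in parental cells, against 2.2% of all genes. Across the 12265 genes Spearman's rho between the responses of the lines was -0.1.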

How the data were processed

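The authors deposited unnormalized counts of 3′-end tags per Ensembl gene for each library, made with Lexogen's QuantSeq REV pipeline on human GRCh38; annotation release and use of strand are not given in the sources used here. Entries that name no gene (5 summaries, 92 spike-ins at 0) were left out, 65.7% to 74.7% of all entries' counts per parental library. Names, lengths and coordinates came from GENCODE release 44 (56104 of 60107 genes matched). A base mean above 20 was required for a test, in R 4.3.3 with edgeR 4.0.16 (TMM, quasi-likelihood, Benjamini-Hochberg), or DESeq2 1.42.0. CPM are TMM-scaled. The difference between lines was an interaction over 16 libraries. Shares were compared by exact permutation in Python 3.11.15. Both tools were tested on simulated data. Intervals cover the spread between libraries.

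The libraries, the 40 gene lists and the tests were chosen with earlier results of these data known. Named genes were the nuclear-retained and mitochondrial members, RNMT, the 8 lowest p in each direction among genes whose groups did not overlap, and up to 4 members per list with the lowest p. Alternatives were other scalings, filters, tools, GC offsets, the replicate block and each library left out. Offsets for transcript length and leaving out 850 genes that share counts across strands were chosen after seeing the data.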

Additional observations from a re-analysis of the deposited data

Results flagged for a closer look

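The response to doxycycline differed between the parental and the transgene line, in the test of the difference itself, for 39 of the 174 genes chosen to be named that were tested, 27 with the higher response in parental cells and 12 with the lower one. Of all 12265 genes tested, 2.98% differed. Many of the 174 were chosen for a low parental p, and the parental change is part of the difference. Their larger share is therefore no result about them. Differences below are on the log2 scale, parental response less transgene response. Among the genes of lowest parental p it was 3.07 for NPTXR, 2.39 for ADGRE5, 2.28 for HSPA5, 2.25 for SNU13, 2.24 for TSTD1 and 2.22 for SNRPN, and -2.81 for BCL11B, -2.16 for KAT6B, -2.31 for R3HDM2, -3.66 for RUSC2 and -3.01 for TNFRSF12A. It was -2.37 for MALAT1 and -2.43 for RNMT. For RNMT the difference lay in the transgene line, where its log2 fold change was 2.10, against -0.33 in the parental line.

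The other 26 were named as members of gene lists. In mitochondria, the difference was 1.28 for MRPS17 of the ribosome, 1.57 for NDUFA6 of complex I, 1.37 for COX7C of complex IV, 1.88 for ATP5ME of ATP synthase and 1.86 for the chaperone gene TRAP1. Among genes of stress and the endoplasmic reticulum it was 2.07 for ASNS, 1.60 for CRELD2, 1.77 for CDKN1A, a p53 target, and 1.5 for OAS3, an interferon-induced gene. Among translation genes it was 2.62 for RPS27A, 2.27 for RPL41 and -3.64 for EIF4G1, and among snoRNA hosts 1.30 for EPB41L4A-AS1 and 1.97 for SNHG29. The proteasome genes PSMG4 and PSMD11 differed in opposite directions (2.19 and -3.23), as did the transcription genes MED24 and POLR2E (2.71 and 2.30) from MED1 (-1.86). The rest were MCM3 (1.26), CCNE1 (1.39), P4HA2 (1.51), ITGB5 (1.34), TUBB6 (1.92), OGT (-1.80) and ZNF462 (-2.07). TRAP1, P4HA2 and SNHG29 share counts with opposite-strand genes, as ADGRE5 and RUSC2 do.

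Adjusted p in edgeR ran from 0.0258 to 0.05, as rounded, over the 39. When each of the 16 libraries was left out in turn, each gene kept its sign and was called in 3 to 8 of the 16 fits, with adjusted p up to 0.165. With the replicate block within lines 20 of them were no longer called, among them MALAT1 (adjusted p = 0.0558), KAT6B (0.0558) and TSTD1 (0.053). The genes were named for their low p in the parental comparison or within a list, so their parental values were large by choice. NPTXR was at 84.1 ± 26.1 CPM uninduced and 36.2 ± 10.1 CPM induced in the transgene line, and BCL11B at 7.07 ± 1.99 and 13.5 ± 4 CPM (SD, n = 5). TSTD1 was barely counted there, at means of 0.414 CPM uninduced and 0.202 CPM induced, and was called in 2 of 5 other settings.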

How the results depend on the processing

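No gene was called in parental cells in edgeR under 3 scalings, filterByExpr, GC offsets, transcript length offsets or the replicate block; DESeq2 called 1 and edgeR without a filter called 10. Leaving out 1 library gave 0 to 2 calls (SAMD1 and TAF1, both lower, without treated library 2, named after their values were seen). Genes with an unadjusted p below 0.05 numbered 267, with 856 unfiltered and 66 to 834 with 1 library left out (92 without untreated library 1, 421 without untreated library 2, 66, 550 and 834 without treated libraries 1, 2 and 3). The split of higher to lower was 85 to 182, 140 to 135 with DESeq2's size factors, and 35 to 318 with total counts alone, which moved the median of all genes to -0.14.

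MALAT1 kept its direction in all 17 alternatives, with -1.80 to -2.87 when 1 library was left out. Its log2 fold change was -2.54 in DESeq2 (adjusted p = 0.017), -2.48 without a filter (adjusted p = 0.0215) and -2.33 with the replicate block; over the 17 alternatives adjusted p ran from 0.017 to 1. EIF4G1 was also called without a filter (adjusted p = 0.0215). The difference in mitochondrial share was 0.0144 percentage points for mRNAs only and -3.24 to 0.573 with 1 library left out. That in nuclear-retained share was -0.125 to -0.0543, and paired sign flips, exact over 3 pairs, gave p = 0.25, the smallest they can give. NEAT1 ran from -0.78 to 0.014 with 1 library left out, reversed without untreated library 3. The count of differences between lines was 1478 in DESeq2, 150 without a filter, 222 with the replicate block within lines and 0 to 2291 with 1 library left out.

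Same-numbered parental libraries deviated with correlations of -0.42 to 0.24, and not every library correlated best with its own number, so the replicate block does not rest on a pairing. It left 0 calls. Depth and the spread between libraries together left 38% of simulated 4-fold changes detected, and their parts were not separated. Of the 39 named genes that differed between the lines, 19 were called with the replicate block and 20, MALAT1 among them, were not.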
